A study of Mus musculus with 16 samples.

Results

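Nicotinic acetylcholine receptors are ion channels that open when acetylcholine or nicotine binds, and each is built from several subunits around a central pore. The genes described here are the alpha subunits Chrna3, Chrna4, Chrna5, Chrna6, Chrna7 and Chrna10, the beta subunits Chrnb2, Chrnb3 and Chrnb4, and Slc5a7, the transporter that carries choline into cholinergic nerve endings. They were chosen by gene symbol, 10 of the 24982 entries of the count table, and all 10 passed the filter on low counts that left 15507 genes for testing. No threshold on a value chose them, but the list was drawn up with earlier results of these counts known. Their genotype differences are therefore given as a description of the fit across all genes, beside the share of all genes called.

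The samples were dorsal root ganglia, the clusters of sensory neuron bodies beside the spinal cord, taken at lumbar levels 4 to 6 on the injected side of C57BL/6 mice 10 to 12 weeks old. WT vehicle and WT CFA were wild-type mice whose ankle joint had been injected 14 days earlier, with vehicle in the former and with complete Freund's adjuvant (CFA), which provokes lasting inflammation, in the latter. KI vehicle and KI CFA were TrkA/C knock-in mice with the same injections. The labels do not describe the construct or say whether it is carried on 1 or both alleles. Each group had 4 libraries, and each library pooled 6 ganglia from 2 mice, so a library is a mean over animals and over all cells of the ganglion.

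Library totals ran from 22742209 to 40910947 counts. Ntrk3, which encodes TrkC, lay between 29.3 and 61.4 CPM (a gene's counts scaled to the library's total) in the 8 WT libraries and between 99.1 and 138 CPM in the 8 KI libraries. The title of 1 library, WT CFA 1, disagreed with its genotype tag, which reads knock-in. Its Ntrk3 level of 48.4 CPM lay among those of the WT libraries, and results that rest on it are given with and without it. Muscle transcripts varied between libraries, with a summed level of up to 932.5 CPM over 11 skeletal muscle genes in KI vehicle against at most 4.38 CPM in WT CFA.

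Sensory neurons are mostly not cholinergic themselves, but many carry nicotinic receptors. The alpha7 subunit can form a channel by itself that passes calcium readily. The alpha3 and beta4 subunits assemble together and form the main receptor of autonomic ganglia, and in sensory ganglia Chrna3 is known as a marker of nociceptors that do not respond to mechanical stimuli until inflammation occurs. The alpha4 and beta2 subunits form the most widespread receptor of the brain, alpha6 pairs with beta2 or beta4, and beta3 and alpha5 are accessory subunits that join other pairs without completing an acetylcholine site of their own. The alpha10 subunit is known from hair cells of the inner ear, where it joins alpha9.

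Chrna5, Chrna3 and Chrnb4 lie side by side on chromosome 9, and Chrnb3 and Chrna6 lie side by side on chromosome 8 (GRCm38, the sequence of build mm10). The gap between Chrna5 and Chrna3 is 2331 bases, that between Chrna3 and Chrnb4 is 1591 bases, and that between Chrnb3 and Chrna6 is 3481 bases. RefSeq promoters (GRCm38.p6) were matched for 8 of the 10 genes, with Chrna6 and Chrnb3 unmatched. The 4 shown are those of the 3 genes with the lowest KI levels relative to WT among genes with enough sequence outside exons, followed by Chrnb2, whose level hardly moved. Each is given 5′ to 3′ on the gene's strand up to the first annotated exon base, and capitals mark every match, on either strand, to the GC box GGGCGG, the E-box CANNTG or the core TGACG of the cyclic AMP response element.
Chrna7, chr7:63212570-63212776, minus strand: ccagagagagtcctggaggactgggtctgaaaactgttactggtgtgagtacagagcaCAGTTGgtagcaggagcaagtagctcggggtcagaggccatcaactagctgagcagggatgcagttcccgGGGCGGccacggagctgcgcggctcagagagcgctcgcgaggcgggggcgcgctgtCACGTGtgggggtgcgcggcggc
Chrna3, chr9:55026563-55026812, minus strand: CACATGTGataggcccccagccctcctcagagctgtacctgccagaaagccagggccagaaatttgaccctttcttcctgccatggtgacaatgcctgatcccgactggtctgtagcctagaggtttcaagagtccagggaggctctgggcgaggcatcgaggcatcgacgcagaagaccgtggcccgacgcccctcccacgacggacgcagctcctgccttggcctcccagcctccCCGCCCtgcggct
Slc5a7, chr17:54299035-54299284, minus strand: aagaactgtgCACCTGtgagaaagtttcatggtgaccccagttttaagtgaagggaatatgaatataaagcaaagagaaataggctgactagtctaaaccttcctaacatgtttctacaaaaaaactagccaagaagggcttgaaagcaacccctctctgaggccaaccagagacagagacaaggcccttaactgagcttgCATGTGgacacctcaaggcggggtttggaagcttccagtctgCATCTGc
Chrnb2, chr3:89764633-89764882, minus strand: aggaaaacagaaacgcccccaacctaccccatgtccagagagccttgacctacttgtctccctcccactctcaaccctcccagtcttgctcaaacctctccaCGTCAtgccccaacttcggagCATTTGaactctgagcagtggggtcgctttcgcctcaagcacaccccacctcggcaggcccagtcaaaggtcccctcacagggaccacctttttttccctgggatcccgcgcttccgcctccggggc
Each of the 4 stretches held at least 1 E-box, a motif with a match in 66.2% of 32851 promoters over the 250 bases before the start. The 2 E-boxes of Chrna3 overlap each other at the far end of its stretch. The GC box, in 32.7% of promoters, was in Chrna7 and Chrna3, and TGACG, in 17.8%, was in Chrnb2. The Runx motif TGTGGT and the AP-1 motif TGAGTCA, in 14% and 4.46% of promoters, had no match in these 4 windows.

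Levels are compared between genes as CPM per kilobase of annotated exon. In WT vehicle Chrna6 was highest at 25.6 ± 1.21 (SD, n = 4), followed by Chrnb2 at 16.0 ± 1.09 and Chrna7 at 14.6 ± 1.52. When the longest transcript was used as the length, the lead of Chrna6 was smaller, at 25.6 against 23.3 for Chrna7 in WT vehicle. Chrnb2 and Chrna7 overlapped in WT, and their order turned with that length. In the KI groups they no longer overlapped, with Chrnb2 at 16.2 ± 0.479 and Chrna7 at 9.44 ± 0.344 in KI vehicle, and 16.5 ± 0.566 and 8.27 ± 0.395 in KI CFA. Chrna3 at 8.55 ± 0.641 and Chrnb4 at 8.26 ± 1.10 CPM per kilobase came next in WT vehicle and overlapped each other in every group. Chrnb3 stood at 3.54 ± 0.243 and Chrna4 at 1.46 ± 0.330. Slc5a7 at 0.765 ± 0.0989 and Chrna10 at 0.4998 ± 0.265 overlapped, and Chrna5 was lowest at 0.0881 ± 0.0349 CPM per kilobase.

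**Figure D1:**
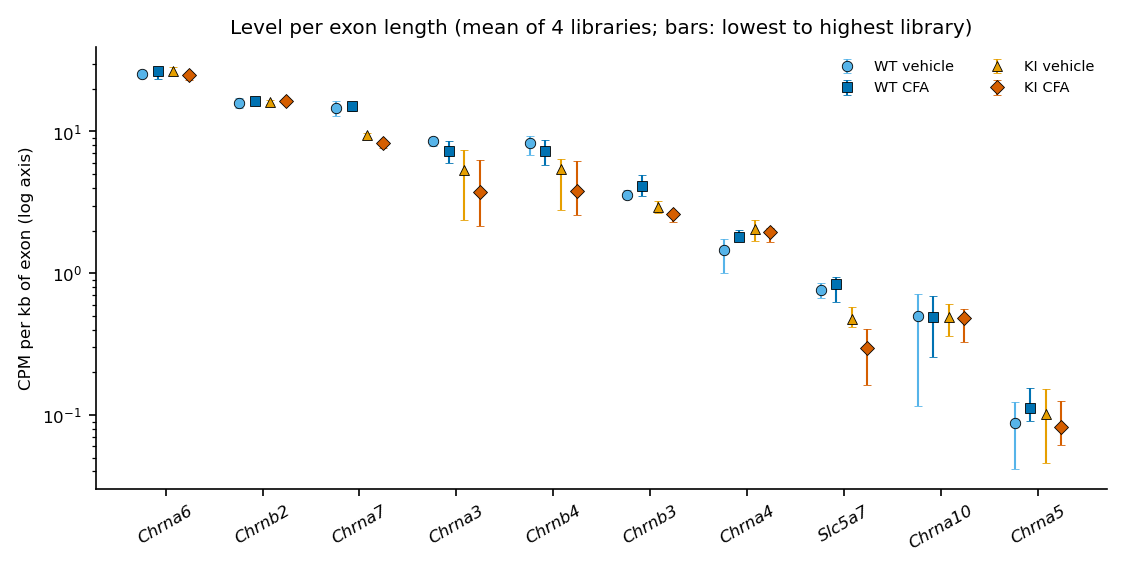
Level of each gene in CPM per kilobase of exon, on a log axis. Points are means of 4 libraries and bars run from the lowest to the highest library. In WT vehicle the order runs from Chrna6 at 25.6 to Chrna5 at 0.0881, and the KI points of Chrna7 stand apart from the WT points.

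Between genotypes, edgeR called 5 of the 10 genes lower in KI and none higher in the mean over both injections. Chrna7, Chrna3, Chrnb4, Chrnb3 and Slc5a7 fell (edgeR adjusted p under 0.05), where 4.64% of all 15507 genes fell and 8.96% were called in either direction. With vehicle only Chrna7 was called (2.19% of genes fell, 4.34% called either way), and with CFA Chrna7, Chrnb3 and Slc5a7 were called (1.75% fell, 2.84% called either way). The median log2 fold change of the 10 was -0.15 with vehicle, -0.54 with CFA and -0.29 in the mean, against a median over all genes of 0.0016, 0.0021 and 0.00072. With vehicle 5 of the 10 had every KI library below every WT library, as 7.89% of all genes did, with CFA 3 (4.44%), and over both injections together 3 (1.33%). These are bulk samples, so fewer cells of a type and less RNA per cell cannot be told apart.

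**Figure D2:**
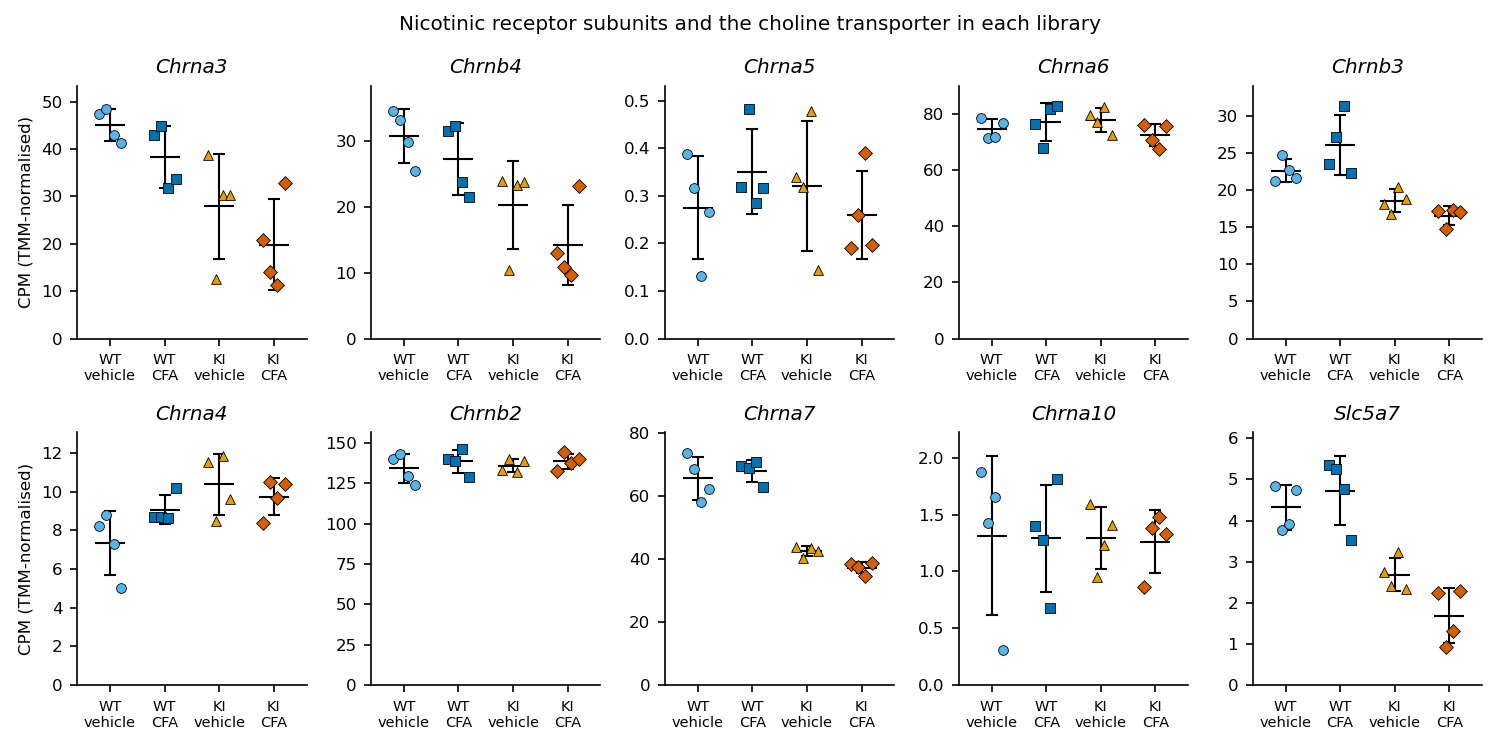
TMM-normalised CPM of each gene in every library, from 0 on each vertical axis. Points are libraries, and horizontal ticks with bars are the group mean ± SD (n = 4). All 8 KI libraries lie below all 8 WT libraries for Chrna7, Chrnb3 and Slc5a7, while the groups overlap for Chrna6 and Chrnb2.

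**Figure D3:**
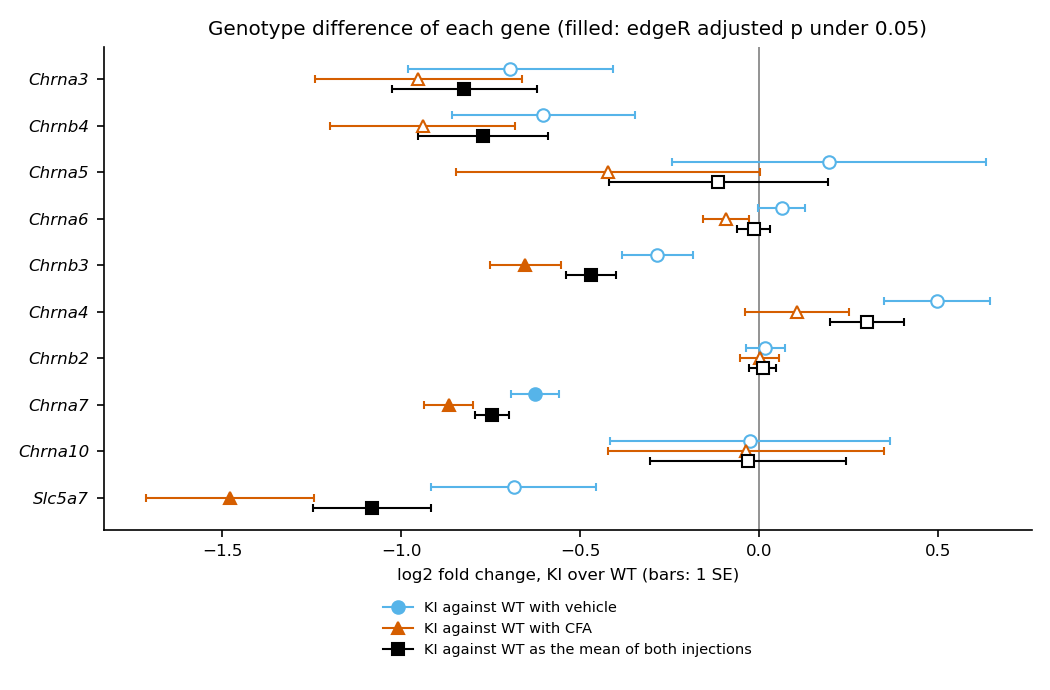
Log2 fold change of KI over WT for each gene with vehicle (circles), with CFA (triangles) and as the mean of both (squares), with bars of 1 SE. Filled symbols mark an edgeR adjusted p under 0.05, which in the mean of both injections are Chrna3, Chrnb4, Chrnb3, Chrna7 and Slc5a7.

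Chrna7 (chromosome 7, 63098692 to 63212569) encodes the alpha7 subunit. Its levels were 73.6, 68.6, 58.2 and 62.0 CPM in WT vehicle and 69.4, 68.9, 70.7 and 62.9 CPM in WT CFA. They were 43.7, 40.3, 43.5 and 42.6 CPM in KI vehicle and 38.3, 37.4, 34.7 and 38.6 CPM in KI CFA. The highest KI library lay below the lowest WT library, and within each genotype the libraries differed by at most 1.27-fold from lowest to highest. Its level fell by 35.2% with vehicle (log2 fold change -0.63 ± 0.07 SE, edgeR adjusted p = 5.71e-05) and by 45.2% with CFA (-0.87 ± 0.07, edgeR adjusted p = 7.61e-07). Ordered by p-value over all genes, Chrna7 ranked 7 with vehicle and 3 with CFA. Without WT CFA 1 the fold change with CFA was -0.86 (edgeR adjusted p = 8.12e-06).

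Over the 16 libraries, the gene whose log2 CPM followed Chrna7 most closely among 13740 genes was Ngfr, which encodes the p75 neurotrophin receptor. Pearson's r was 0.986 over all libraries, 0.767 over the 8 WT and 0.866 over the 8 KI libraries. The pooled value joins 2 genotypes that do not overlap, so it is a description of that gap as well as of the spread within it. Ngfr lay between 968 and 1215 CPM in WT and between 624 and 736 CPM in KI, and its log2 fold change was -0.59 ± 0.06 with vehicle and -0.75 ± 0.06 with CFA. The next genes were Mmp15 (r = 0.966, and 0.435 within WT and 0.779 within KI) and Pcdhac1 (r = 0.961, and 0.804 and 0.867). The values within a genotype join both injections. With the mean of each group subtracted, r over the 16 libraries was 0.802 for Ngfr, 0.515 for Mmp15 and 0.745 for Pcdhac1.

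Markers of peptidergic nociceptors, the class of pain-sensing neurons that carry neuropeptides, were lower in KI as well. Their summed level over 8 genes was 2094 to 3119 CPM in WT vehicle, 2114 to 2496 CPM in WT CFA, 1243 to 1368 CPM in KI vehicle and 1253 to 1481 CPM in KI CFA, and 7, 7 and 8 of the 8 fell with vehicle, with CFA and in the mean of both. Of the 8 markers of nonpeptidergic nociceptors, 5 rose and none fell in the mean. Of the 10 markers of A-fibre neurons, which carry touch and position sense, 6 rose and 2 fell in the mean, with a median log2 fold change of 0.49, and the list includes Ntrk3. Over all genes 4.33% rose and 4.64% fell in the mean. Of 10 general neuronal markers 2 fell and none rose, and their sum was 15489 to 18945 CPM over all libraries. The part of these differences in the levels of the nicotinic genes was not tested.

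Chrna3 (chromosome 9, 55010111 to 55026562) encodes the alpha3 subunit. Its levels were 47.3, 48.4, 43.1 and 41.3 CPM in WT vehicle and 43.0, 44.8, 31.8 and 33.6 CPM in WT CFA. They were 38.8, 12.5, 30.3 and 30.2 CPM in KI vehicle and 20.8, 14.0, 11.4 and 32.9 CPM in KI CFA. With vehicle every KI library lay below every WT library, and with CFA the groups overlapped because KI CFA 4 stood above WT CFA 3. The KI libraries differed among themselves by 3.41-fold from lowest to highest, against 1.52-fold in WT. The log2 fold change was -0.69 ± 0.29 (SE) with vehicle and -0.95 ± 0.29 with CFA, neither called (edgeR adjusted p = 0.152 and 0.0962), and -0.82 ± 0.20 in the mean of both (edgeR adjusted p = 0.0151). Without WT CFA 1 the mean was -0.79 (edgeR adjusted p = 0.0314).

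Chrnb4 (chromosome 9, 55028154 to 55048779), the partner of alpha3, showed the same libraries at the low end. It had 34.6, 33.2, 29.8 and 25.4 CPM in WT vehicle and 31.6, 32.2, 23.8 and 21.5 CPM in WT CFA. It had 23.9, 10.3, 23.3 and 23.8 CPM in KI vehicle and 13.0, 10.9, 9.64 and 23.1 CPM in KI CFA. KI vehicle 2 and KI CFA 1, 2 and 3 were the 4 lowest libraries for both genes. Within WT, replicates 1 and 2 had 31.6 to 34.6 CPM of Chrnb4 over both injections, and replicates 3 and 4 had 21.5 to 29.8 CPM. The fold change of Chrnb4 was -0.60 ± 0.26 on the log2 scale with vehicle and -0.94 ± 0.26 with CFA, neither called (edgeR adjusted p = 0.162 and 0.0578), and -0.77 ± 0.18 in the mean of both (edgeR adjusted p = 0.0111). Without WT CFA 1 the mean was -0.73 (edgeR adjusted p = 0.0257). With CFA, Chrnb4 was called in 8 of 28 alternatives, among them DESeq2 (DESeq2 adjusted p = 0.0477) and limma-voom (limma adjusted p = 0.0143), and Chrna3 in 3 of 28, among them limma-voom (0.0225). Both genes were called with CFA when KI CFA 4 was left out, at -1.32 for Chrna3 (edgeR adjusted p = 0.0104) and -1.29 for Chrnb4 (0.0043), and when KI vehicle 2 was left out (0.0279 and 0.0164). With vehicle, leaving out KI vehicle 2 moved Chrna3 to -0.44 and Chrnb4 to -0.38.

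The 2 genes moved in step. The ratio of Chrnb4 to Chrna3, each per kilobase, stayed between 0.868 and 1.20 in all 16 libraries while Chrna3 itself ranged over 4.25-fold. Chrnb4 was the gene most like Chrna3 among 13740, with r = 0.981 over all libraries, 0.918 over WT and 0.975 over KI. The value over WT also spans the gap in Chrnb4 between WT replicates 1 and 2 and WT replicates 3 and 4. Both genes were followed next by Negr1, a cell adhesion gene (r = 0.969 with Chrna3), and by Hoxd10 (0.961). Chrna5, the third gene of the cluster, was at 0.131 to 0.483 CPM (3 to 15 counts) and is too low to be set beside them.

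Hoxd10 and its neighbour Hoxd11 are homeobox genes of the caudal body axis, whose levels mark position along the spine. Hoxd10 was at 21.9, 25.9, 21.8 and 20.6 CPM in WT vehicle and at 22.0, 20.7, 17.4 and 19.4 CPM in WT CFA. It was at 21.7, 7.21, 16.7 and 21.4 CPM in KI vehicle and at 9.67, 4.75, 5.25 and 18.4 CPM in KI CFA. The 4 KI libraries lowest in Hoxd10 were thus the 4 lowest in Chrna3 and Chrnb4. Within KI, Hoxd10 had r = 0.958 with Chrna3 and 0.967 with Chrnb4, and within WT 0.872 and 0.745, each over 8 libraries. Hoxd11 had r = 0.944 with Chrna3 and 0.943 with Chrnb4 within KI, and 0.486 and 0.613 within WT. The other 3 genes called lower in KI also followed Hoxd10 over the KI libraries, with r = 0.793 for Chrna7, 0.798 for Slc5a7 and 0.698 for Chrnb3. Within WT r was 0.0424, -0.209 and -0.410. The KI values join both injections, and mean Hoxd10 was 16.8 CPM in KI vehicle and 9.52 CPM in KI CFA. For Chrna7 and Slc5a7 every KI CFA library lay below every KI vehicle library, so their r also spans that gap.

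When the mean log2 CPM of Hoxd10 and Hoxd11 was added to the model as a covariate, a choice made after these values were seen, the estimates of the 2 subunits became smaller. Hoxd10 had been picked out by its likeness to these 2 genes, so their smaller estimates follow from that choice and are given as a description only. In the mean of both injections Chrna3 went to -0.20 ± 0.11 (edgeR adjusted p = 0.313) and Chrnb4 to -0.23 ± 0.12 (0.285). Chrna7 was at -0.69 ± 0.06 (edgeR adjusted p = 1.60e-05), Chrnb3 at -0.41 ± 0.10 (0.0246) and Slc5a7 at -0.79 ± 0.20 (0.0356), all still called. With CFA alone, Chrnb3 at -0.57 ± 0.13 (edgeR adjusted p = 0.0741) and Slc5a7 at -1.10 ± 0.28 (0.107) were no longer called. Hoxd10 itself was not called between genotypes (-0.74 ± 0.24 in the mean, edgeR adjusted p = 0.0581). Whether the mix of lumbar levels differed between the pools was not tested.

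**Figure D4:**
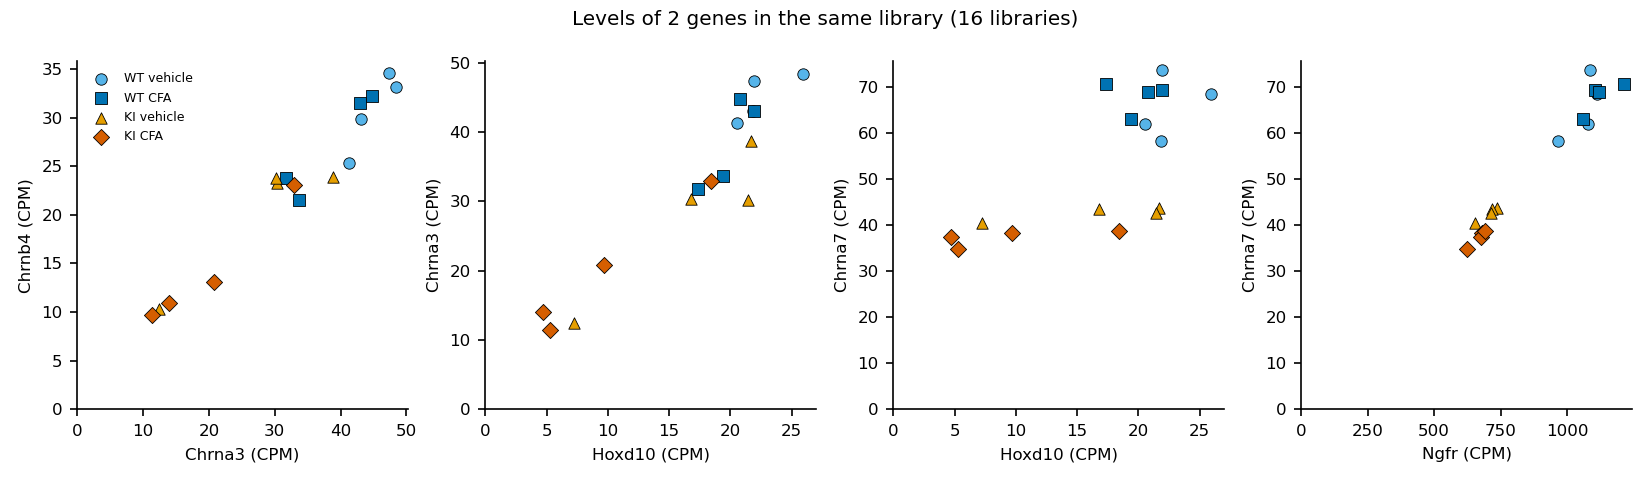
Levels of 2 genes in the same library, in CPM, for 16 libraries marked by group. From left to right the panels plot Chrnb4 against Chrna3, Chrna3 against Hoxd10, Chrna7 against Hoxd10 and Chrna7 against Ngfr. In the third panel every KI library, at 34.7 to 43.7 CPM of Chrna7, lies below every WT library. Over the KI libraries of both injections together, Chrna7 has r = 0.793 with Hoxd10.

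**Figure D5:**
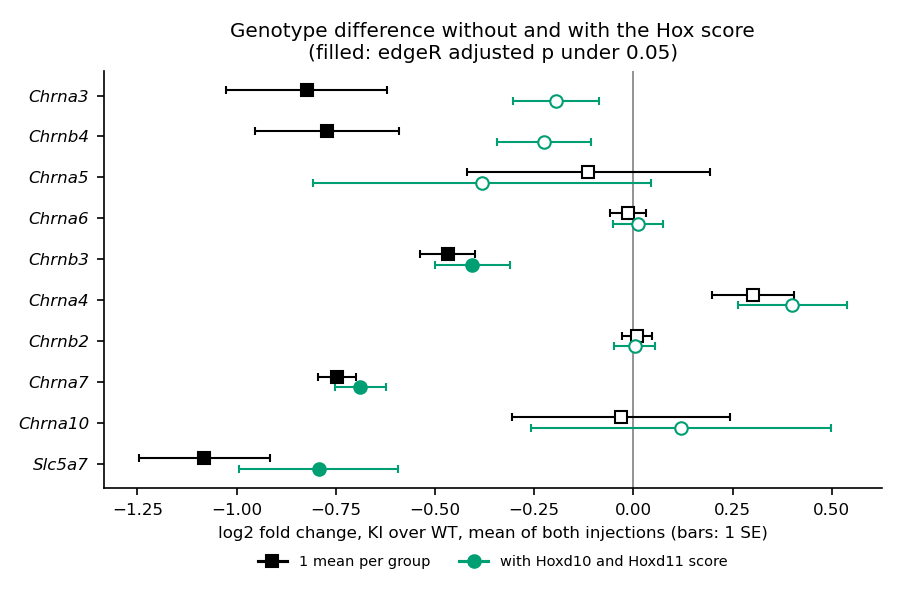
Log2 fold change of KI over WT as the mean of both injections, with 1 mean per group (squares) and with the mean log2 CPM of Hoxd10 and Hoxd11 as a covariate (circles). Bars are 1 SE and filled symbols mark an edgeR adjusted p under 0.05. Chrna3 moves from -0.82 to -0.20 and Chrnb4 from -0.77 to -0.23, the genes by whose likeness Hoxd10 was picked. Chrna7 goes from -0.75 to -0.69.

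Autonomic neurons also carry alpha3 and beta4. The summed level of 8 sympathetic markers was 4.58 to 18.8 CPM over all libraries, mostly from Maob and Npy, with means of 5.02 and 2.25 CPM. The other 6 had a mean under 1 CPM, and Dbh, the noradrenaline synthesis enzyme, had at most 10 counts. The 2 markers tested were not called between genotypes, with a median log2 fold change of -0.94 in the mean of both injections. The part of autonomic neurons in the levels of Chrna3 and Chrnb4 was not tested.

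Chrnb3 (chromosome 8, 27368711 to 27399730) encodes the accessory beta3 subunit. Its levels were 21.2, 24.7, 22.8 and 21.7 CPM in WT vehicle and 23.5, 27.2, 31.3 and 22.3 CPM in WT CFA. They were 18.1, 16.8, 20.5 and 18.9 CPM in KI vehicle and 17.2, 14.7, 17.4 and 16.99 CPM in KI CFA. No KI library reached a WT library. The difference was -0.28 ± 0.10 on the log2 scale with vehicle, which was not called (edgeR adjusted p = 0.0960). Chrnb3 fell by 36.4% with CFA (-0.65 ± 0.10, edgeR adjusted p = 0.00101) and by 27.7% in the mean of both (-0.47 ± 0.07, edgeR adjusted p = 0.000247). Without WT CFA 1 the difference with CFA was -0.70 (edgeR adjusted p = 0.00197).

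Its neighbour Chrna6 (chromosome 8, 27403212 to 27413944), the alpha6 subunit, stayed at 67.5 to 82.7 CPM in all 16 libraries. The groups overlapped, and the difference in the mean of both injections was -0.01 ± 0.05 on the log2 scale. Its approximate 95% interval was -0.10 to 0.08. The ratio of Chrnb3 to Chrna6 per kilobase was 0.123 to 0.183 in WT and 0.0952 to 0.119 in KI, without overlap. The 2 neighbours had r = 0.145 over the 16 libraries, in contrast to the pair of Chrna3 and Chrnb4. The gene most like Chrnb3 was Neto2, an auxiliary subunit of kainate receptors (r = 0.928 over all libraries, 0.854 within WT and 0.766 within KI). With the mean of each group subtracted, r of Chrnb3 with Neto2 was 0.686. The gene most like Chrna6 was Cmtm8 (r = 0.804).

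Chrnb2 (chromosome 3, 89746195 to 89764632), which encodes the beta2 subunit that alpha4 and alpha6 both use, was the highest of the 10 in CPM at 123.6 to 146.4 over all libraries. Its difference in the mean of both injections was 0.01 ± 0.04 on the log2 scale, with an approximate 95% interval of -0.06 to 0.08. It shares 1365 exon bases with Adar on the opposite strand, and reads there cannot be assigned because the strand setting of the counting is not given in the sources used here. Adar differed by 0.14 ± 0.07 on the log2 scale in the mean and was not called (edgeR adjusted p = 0.215).

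Chrna4 (chromosome 2, 181018380 to 181043546), the alpha4 subunit, had a higher mean in each KI group than in the WT group with the same injection. It had 8.20, 8.79, 7.31 and 5.02 CPM in WT vehicle and 8.69, 8.70, 8.66 and 10.2 CPM in WT CFA. It had 11.5, 8.48, 11.8 and 9.62 CPM in KI vehicle and 8.40, 10.5, 9.70 and 10.4 CPM in KI CFA. The groups overlapped under both injections. The difference was 0.50 ± 0.15 with vehicle (edgeR adjusted p = 0.0617) and 0.11 ± 0.15 with CFA on the log2 scale, and neither was called. With vehicle it was called by DESeq2 (DESeq2 adjusted p = 0.0218), with a covariate that set WT replicates 1 and 2 against 3 and 4 (edgeR adjusted p = 0.0295) and without WT vehicle 2 (0.0386) or KI vehicle 2 (0.04999). In the mean of both injections it was 0.30 ± 0.10, not called by edgeR (adjusted p = 0.0787), and it was called higher by DESeq2 (DESeq2 adjusted p = 0.0443) and without WT vehicle 2 (edgeR adjusted p = 0.0431).

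Chrna10 and Chrna5 had the lowest counts of the 10. Chrna10 had 0.304 to 1.87 CPM (8 to 63 counts), and Chrna5 had 3 to 15 counts. The approximate 95% interval of the genotype difference in the mean ran from -0.57 to 0.51 on the log2 scale for Chrna10. For Chrna5 it ran from -0.71 to 0.48, and both intervals span 0. Chrna10 shares 1025 exon bases with Art1 on the opposite strand, a gene with 60 counts in KI vehicle 1 and 45 in KI vehicle 4 and at most 11 elsewhere. Those are the 2 libraries with the most muscle transcripts, and the part of Art1 in the counts of Chrna10 was not tested.

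Slc5a7 (chromosome 17, 54273590 to 54299034), the high-affinity choline transporter whose uptake limits acetylcholine synthesis in cholinergic endings, showed the largest fall of the 10 in the mean of both injections. It had 4.84, 3.76, 3.92 and 4.75 CPM in WT vehicle and 5.34, 5.25, 4.78 and 3.52 CPM in WT CFA, which is 90 to 168 counts. It had 2.75, 2.41, 3.24 and 2.34 CPM in KI vehicle and 2.23, 0.921, 1.33 and 2.29 CPM in KI CFA, which is 32 to 95 counts. All 8 KI libraries lay below all 8 WT libraries, and KI CFA 2 and 3, the lowest in Hoxd10, were also the lowest here. With vehicle the difference was -0.68 ± 0.23 on the log2 scale and was not called by edgeR (adjusted p = 0.0851), but was called by DESeq2 (DESeq2 adjusted p = 0.0400). With CFA Slc5a7 fell by 64.1% (-1.48 ± 0.23, edgeR adjusted p = 0.00138), and in the mean of both by 52.7% (-1.08 ± 0.16, edgeR adjusted p = 0.0003). Without WT CFA 1 the difference with CFA was -1.41 (edgeR adjusted p = 0.00619). The genes most like it were Greb1 (r = 0.955), the apoptosis inhibitor Bcl2 (0.946) and Ap3m2 (0.923), values that again span the gap between the genotypes. Within WT they were 0.796, 0.397 and 0.642, and within KI 0.906, 0.907 and 0.867. With the mean of each group subtracted they were 0.883, 0.777 and 0.697 over the 16 libraries.

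The genes that act next to the choline transporter were hardly detected. Chat, which makes acetylcholine, had 0 to 6 counts per library, and Slc18a3, which loads it into vesicles, had 0 or 1. Motor neurons also carry Slc5a7. Their 6 markers summed to 181 to 226 CPM over all libraries, nearly all of it from Isl2 with 4798 to 9174 counts per library, and Isl2 was not called between genotypes. The other 5 had a mean under 1 CPM, and Mnx1 had at most 4 counts. The part of motor neurons in the level of Slc5a7 was not tested.

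CFA alone moved none of the 10 genes past the threshold. In WT, KI and the mean of both genotypes, edgeR called 0 of the 10, where it called 0%, 0% and 0.0258% of all genes. DESeq2 and limma-voom called 0 of the 10 as well. At an unadjusted p under 0.05 edgeR had 0 of the 10 in WT, 2 in KI and 0 in the mean of both, where it had 6.96%, 5.68% and 6.57% of all genes. The 2 were Chrna7, lower with CFA by 0.19 ± 0.07 on the log2 scale, and Slc5a7, lower by 0.67 ± 0.24 (edgeR adjusted p = 0.750 for each). For both, every KI CFA library lay below every KI vehicle library, as 2.04% of all genes did.

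The genotype difference was more negative with CFA than with vehicle for all 10 genes, as it was for 49.1% of all genes, but edgeR, DESeq2 and limma-voom called none in the test of the interaction, in which edgeR called 0% of all genes. At an unadjusted p under 0.05 edgeR had Chrnb3 (-0.37 ± 0.14 on the log2 scale), Chrna7 (-0.24 ± 0.10) and Slc5a7 (-0.79 ± 0.33), each with an edgeR adjusted p of 0.718, and 6.29% of all genes. The differences with CFA in KI and with CFA between genotypes share the KI CFA libraries, so these values are not separate observations. Hoxd10, which Chrna7, Slc5a7 and Chrnb3 followed over the KI libraries of both injections together, was at 16.8 ± 6.77 CPM (SD, n = 4) in KI vehicle. It was at 9.52 ± 6.33 CPM in KI CFA, and the part of this difference in the values above was not tested.

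Of 36 other cholinergic genes, 25 passed the filter, and 3 rose and 4 fell in the mean of both injections, where 4.33% of all genes rose and 4.64% fell. The 7 nicotinic subunits outside the 10 were at low levels. Chrna1 and Chrnb1, subunits of the muscle receptor, passed the filter at 13 to 51 and 15 to 48 counts and were not called. The remaining 5 had at most 10 counts in any library, and Chrna9, the partner of alpha10, had 0 to 4. Of 10 genes for receptor assembly and modulation, Lypd6b rose (0.31 ± 0.07, edgeR adjusted p = 0.00641) and so did Ubxn2a (0.11 ± 0.03, 0.0383). Lynx1 and Ly6h, membrane proteins that bind nicotinic receptors and damp them, fell, with log2 fold changes of -0.16 ± 0.04 (edgeR adjusted p = 0.00989) and -0.37 ± 0.07 (0.00182). Ric3 and Tmem35a, chaperones needed for alpha7 receptors to reach the surface, were not called, at -0.08 ± 0.04 and 0.13 ± 0.05.

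Colq, the collagen tail that anchors acetylcholinesterase, rose from 5.13 ± 0.880 CPM (SD, n = 4) in WT vehicle and 4.92 ± 0.433 in WT CFA to 7.24 ± 1.02 in KI vehicle and 8.33 ± 0.968 in KI CFA (log2 fold change 0.63 ± 0.10 in the mean, edgeR adjusted p = 0.000313). It shares 199 exon bases with Gm49387 on the same strand, so its counts could be split. Ache, acetylcholinesterase itself, fell slightly (log2 fold change -0.11 ± 0.03, edgeR adjusted p = 0.0415). Ache lost its call in 18 of 27 alternatives, Ubxn2a in 15 of 27, and Lynx1 in 2, which were the muscle covariate and the fit without KI vehicle 1 and 4. Chrm2, the M2 muscarinic receptor, fell (log2 fold change -0.58 ± 0.11, edgeR adjusted p = 0.00216), from 8.25 ± 1.13 and 9.08 ± 0.814 CPM in the 2 WT groups to 6.502 ± 0.814 and 5.16 ± 1.22 CPM in KI vehicle and KI CFA. The other 3 muscarinic receptors tested, and the 5 choline supply genes tested, were not called in any comparison of genotypes. With vehicle 2 of the 25 rose and 1 fell, where 2.15% of all genes rose, and with CFA 1 rose and 1 fell, where 1.09% rose.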

How the data were processed

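RNA was sequenced from 16 libraries in 4 groups of 4, taken from the sample titles. Per the labels' protocols, poly-A libraries were made from 150 ng of RNA by a strand-selecting kit with 15 PCR cycles, and read as 50 bases on a run of 20 libraries over 3 lanes. Which library ran on which lane is not labelled. The submitters' processing notes name HTSeq 0.6.1p1, SAMtools 1.5, TopHat2 2.1.1 and Bowtie2 2.3.5.1 among the tools, and mm10 as the genome build. The authors deposited raw read counts per gene, with no normalization. Strand setting and annotation are not given in the sources used here.

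The 28 entries without an identifier (0.192% of counts) carry a gene symbol and were kept. The fit used edgeR 4.0.16 in R 4.3.3, with TMM factors, filterByExpr, 1 mean per group over all libraries, the quasi-likelihood test and Benjamini-Hochberg adjustment over 15507 genes, with calls under 0.05. The common biological coefficient of variation was 11.8%. SE is the log2 fold change over the square root of F. The 7 comparisons set the genotypes against each other under each injection and on average, the injections against each other within each genotype and on average, and tested the interaction. CPM are TMM-normalised. For the genes tested the factors came from those genes. For marker list sums, log2 CPM and genes that did not pass the filter they came from all entries. A prior count of 2 was added for log2 CPM. The script was tested on simulated counts. Exon lengths and positions came from GENCODE (GRCm38). PCR duplicates cannot be seen in counts.

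The genes and lists were chosen with earlier results of these data known. The rule named the 10 genes, cholinergic genes called in any comparison (at most 4 per list, by p), and the 3 genes of at least 1 CPM with the highest Pearson r to each of the 10. Hoxd11, Adar, Art1, and list genes named without a call were added after their values were seen. The smallest exact permutation p of 4 against 4 libraries is 0.0286. The alternatives were DESeq2 1.42.0, limma-voom (limma 3.58.1), changed size factors or filters, fewer samples, a replicate block and covariates. Some results are not reported here.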

Additional observations from a re-analysis of the deposited data

Results flagged for a closer look

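In each of the 4 groups, the highest and the lowest library of each of the 10 genes was compared with the other 3, and 4 of 40 groups had a library whose gap to its nearest neighbour was larger, as a share of the group's range, than Dixon's critical value. Chance alone flags about 1 in 20 groups. Chrnb4 in KI vehicle 2 was at 10.3 CPM, against 23.3 to 23.9 CPM in the other 3 libraries. Chrnb3 in KI CFA 2 was at 14.7 CPM, against 16.99 to 17.4 CPM. Chrna4 in WT CFA 4 was at 10.2 CPM, against 8.66 to 8.70 CPM. Chrna5 in WT CFA 2 was at 0.483 CPM, against 0.285 to 0.318 CPM, values that rest on 8 to 14 counts.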

How the results depend on the processing

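Chrna7 was called lower in KI in all 28 alternatives with vehicle, all 28 with CFA and all 27 in the mean of both injections. Chrnb3 and Slc5a7 were called in all 27 in the mean, and with CFA in all 28 but the Hoxd10 and Hoxd11 covariate. Of the 10 genes, 1 was called with vehicle, against 3 with DESeq2 (1 rise, 2 falls). It was 2 (1 rise, 1 fall) with a covariate that sets WT replicates 1 and 2 against 3 and 4 (the WT split). When a library was left out, 1 to 2 were called, with 1 rise without WT vehicle 2 or KI vehicle 2. The rise was Chrna4 each time. With CFA 3 were called, against 5 with limma-voom, 1 with the Hox covariate and 3 to 5 when a library was left out. In the mean 5 were called, against 6 with DESeq2, 3 with the Hox covariate and 5 to 6 with a library left out, and the sixth was Chrna4, called higher. No alternative called any of the 10 for CFA or the interaction. The counts of genes called are not set beside the share of all genes called in the same alternative. Why the calls moved was not tested.

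Of the other cholinergic genes, 3 were called with vehicle, against 1 with no filter, 1 with only the groups compared, 1 with the muscle covariate, 0 without KI vehicle 1 and 4, and 1 to 3 with a library left out. With vehicle, Colq lost its call in 18 of 28 alternatives and Lypd6b in 10. With CFA 2 were called, against 4 with DESeq2, 4 with limma-voom, 0 with the Hox covariate and 2 to 4 with a library left out. In the mean 7 were called, against 4 with the muscle covariate, 11 with the WT split and 4 without KI vehicle 1 and 4. For these counts too, the share of all genes called in the same alternative is not given.

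Signs turned only where the main estimate was smaller in size than its SE. Chrna5, with 3 to 15 counts per library, was at 0.19 ± 0.44 with vehicle in the main fit. With vehicle, Chrna10 was 0.0135 with the WT split and 0.0612 with the Hox covariate, and Chrnb2 was -0.0216 with limma-voom. With CFA and the Hox covariate, Chrna10 was 0.1769 and Chrnb2 -0.0074. In the mean, Chrna5 was 0.0361 without KI vehicle 1 and 4, Chrna6 was 0.0051 with limma-voom, 0.0046 without KI vehicle 1 and 4 and 0.0114 with the Hox covariate, Chrna10 was 0.1190 with the Hox covariate, and Chrnb2 was -0.0095 with limma-voom. With a library left out, the values with vehicle ran from -0.0421 to 0.424 for Chrna5, -0.3518 to 0.1985 for Chrna10 and -0.0202 to 0.0600 for Chrnb2. With CFA they ran from -0.2411 to 0.1751 for Chrna10 and -0.0308 to 0.0317 for Chrnb2. In the mean they ran from -0.2433 to 0.0006 for Chrna5, -0.0381 to 0.0060 for Chrna6, -0.1945 to 0.0809 for Chrna10 and -0.0093 to 0.0315 for Chrnb2.

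Replicate numbers share no stated litter or day. Deviations of same-numbered libraries correlated between -0.207 and 0.133 over 24 pairs, and 2 of 16 libraries correlated best with their own number. With the replicate number as a block, 1, 3 and 5 of the 10 genes were again called, and Chrna7 was -0.75 in the mean (edgeR adjusted p = 5.91e-07). The share of all genes called with the block is not given.

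Chrna5 and Chrna10 had counts of 3 to 63 per library. Libraries pool 2 mice, lanes are unknown, and 4 libraries a group leave differences of the size seen for Chrna4 near the threshold.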
